A study of Mus musculus with 6 samples.

Results

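The 10 genes described here make nicotinamide adenine dinucleotide (NAD) or spend it, and were measured in heart muscle cells after doxorubicin: Nampt, Nmrk1, Nmrk2, Nmnat1, Nmnat3, Nnt, Sirt1, Sirt3, Sirt5 and Sirt6. They were chosen by name, and all 10 are rows of the 24972 in the deposited table. Doxorubicin is an anthracycline cancer drug that poisons topoisomerase II and damages the heart. Both groups were mice of the MX1gfp reporter genotype, so the altered allele was shared by treated and control animals. Of the 6 mice, 3 were controls given phosphate buffered saline and 3 were given doxorubicin (25 mg per kg body weight), each in 1 intraperitoneal injection of 100 microlitres. Hearts were taken 48 hours later. Ventricular cells were released with collagenase, myocytes were settled by gravity, and RNA was sequenced as 1 library per mouse. The labels give no age, sex or background strain, and settling enriches myocytes without sorting them.

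NAD carries electrons between fuels and the respiratory chain, and it is also consumed as a substrate by sirtuins, poly(ADP-ribose) polymerases and glycohydrolases, which release nicotinamide. Cells rebuild it mostly by salvage. Nampt turns nicotinamide into the mononucleotide, Nmrk1 and Nmrk2 phosphorylate nicotinamide riboside to the same product, and the Nmnat enzymes join the adenylyl group. Nmnat1 works in the nucleus and Nmnat3 has been placed in mitochondria. Nnt sits in the inner mitochondrial membrane and passes electrons from NADH to NADP. Sirt1 and Sirt6 are mainly nuclear deacylases, whereas Sirt3 and Sirt5 work in the mitochondrial matrix. The heart is rich in mitochondria and draws heavily on this cofactor.

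The genes lie on 7 chromosomes of GRCm38, the assembly that mm10 denotes. Nampt is on chromosome 12 (32820335 to 32853369), Nmrk1 on chromosome 19 (18632016 to 18652428), Nmnat1 on chromosome 4 (149467569 to 149485210) and Nmnat3 on chromosome 9 (98287433 to 98420533). Nnt (119335527 to 119409257) and Sirt5 (43365389 to 43395203) share chromosome 13, and Sirt3 is on chromosome 7 (140863663 to 140882309). Nmrk2 (81198170 to 81202265), Sirt1 (63319005 to 63339035) and Sirt6 (81621787 to 81627792) share chromosome 10. RefSeq start-site windows of GRCm38.p6, from 250 bases before to 50 after a start, were at hand for 9 of the 10 genes in 12 windows, Nnt being the exception. The short stretches printed here each lie before a RefSeq start site, which for Nmrk2 is inside the gene's span. They belong to the member with the largest difference (Nmrk2), a lower mitochondrial sirtuin (Sirt5), the sirtuin with the highest difference (Sirt1) and the main salvage enzyme (Nampt). Each is written 5′ to 3′ on the gene's strand, with the matched motif in capitals.

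Nmrk2, chr10:81202068-81202093, minus strand: tgcccaaaccTATAAAtgccccacag
Sirt5, chr13:43365360-43365386, plus strand: tgagccttggAAGGTCAcaaagacaca
Sirt1, chr10:63339135-63339160, minus strand: ggcgcccggcCACGTGacccggcgtg
Sirt1, chr10:63339063-63339088, minus strand: aggggcgggtCACGTGacggggttta
Nampt, chr12:32820276-32820305, plus strand: cccctgcgctGCGCACGCGCagccgtgccc

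The TATA box letters TATAAA, sought on either strand, were found in the Nmrk2 window alone among the members and in 13.6% of 32851 windows of the same length. They begin 46 bases before a start site that lies inside the Nmrk2 span. The letters are thus within the gene coordinates given above, not upstream of them. The nuclear receptor half-site AAGGTCA, found in 4.72% of windows, was present for Sirt5 and Nmnat3. The E-box CACGTG, found in 7.15%, was present for Sirt1 at 2 places, 115 and 43 bases before the start. The NRF1 motif, found in 4.6%, was present for Nampt and Sirt6, and the p53 half-site, found in 8.36%, for Nmrk1. The common letters GGGCGG (35.7% of windows) were present for 8 members and CCAAT (37.4%) for 4. No member's window held TGACGTCA (1.79%), TCAAGGTCA (0.423%), which contains AAGGTCA, the core of the interferon-stimulated response element (3.44%), the MEF2 motif (0.11%) or the DR1 element (0.0396%). The 12 motifs were chosen after the values were seen, and a match describes letters only.

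Each value is a read count that the authors had normalized. The counts of a library summed to 7217949 to 7500386 in vehicle and 5410780 to 6498373 after doxorubicin. The reads behind them, estimated from the spacing of low values, numbered 7707385 to 11371913 and 3668151 to 6171708, so depth and treatment cannot be told apart. Marker transcripts of several cell types also differed between the libraries. The summed level of 8 cardiomyocyte markers, led by Myh6 and Actc1, was 572010 to 682520 in vehicle and 519240, 167090 and 147660 in doxorubicin replicates 1 to 3. Lower groups that did not overlap were seen for 5 of the 8, against 22.6% of all genes tested. Myh6, Ttn and Ryr2 overlapped, with doxorubicin replicate 1 within the vehicle range. All 6 macrophage markers had higher groups that did not overlap, against 19.2% of all genes tested. Their sum was 1423 to 1505 in vehicle and 2167 to 6783 after doxorubicin. The neutrophil markers, led by S100a9 and S100a8, summed to 10.5 to 21.7 and 55.0 to 563, and Ly6g was at 0 in 4 libraries. The sums of the 6 fibroblast markers were 6017 to 7915 and 8290 to 22530, but only 2 of the 6 had higher groups that did not overlap. Dcn, the highest of them, had 2446 to 2905 in vehicle and 3113, 18072 and 11326 after doxorubicin. Col3a1 had 1412 to 2268 and 2220, 740 and 1185, so the sums do not speak for every fibroblast marker. The 6 endothelial markers summed to 11151 to 14726 and 16370 to 21238, and 4 of the 6 had higher groups that did not overlap. Lymphocyte markers did not exceed 52.3 in sum. The sums of atrial and erythroid markers were highest in doxorubicin replicate 1, at 1426 and 8358 against at most 526 and 1999 in vehicle, and those of the mural markers overlapped. In bulk RNA, fewer cells of a type and less RNA per cell cannot be told apart, and the part of these shifts in the differences given here was not tested.

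The comparison asked which of the 10 genes differed between doxorubicin and vehicle. Lower values were seen for 6 of them in every doxorubicin library than in any vehicle library: Nmrk2, Nmnat1, Nmnat3, Nnt, Sirt3 and Sirt5. The mitochondrial members Nmnat3, Nnt, Sirt3 and Sirt5 are all among them, as is nuclear Nmnat1. Nampt, Nmrk1, Sirt1 and Sirt6 had overlapping groups, and Sirt1 was higher in 2 of the 3 doxorubicin libraries only. Across the 12477 genes tested, 22.6% had lower groups that did not overlap and 19.2% had higher ones. The count of members was thus 6 of 10 lower and 0 of 10 higher. With limma on log2(value + 1), where a difference is doxorubicin minus vehicle, 0 members passed a Benjamini-Hochberg adjusted p of 0.05, as did 0% of all genes in either direction, so none is reported as changed. At an unadjusted p under 0.05 the same 6 members were lower and 0 were higher, against 19.3% and 16.7% of all genes. The median log2 difference of the 10 genes was -0.85, beside a median of -0.00 over all genes. Doxorubicin replicate 1 decided the calls. Without it, limma called the 6 genes lower and Sirt1 higher, against 21.8% and 19.3% of all genes. With library weights, the counts were again 6 lower and 1 higher, against 18.6% and 15.7%. Those weights were 0.277 for doxorubicin replicate 1, 0.425 for doxorubicin replicate 3 and 3.24 for vehicle replicate 2. The weighted fit thus does not isolate doxorubicin replicate 1.

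**Figure D1:**
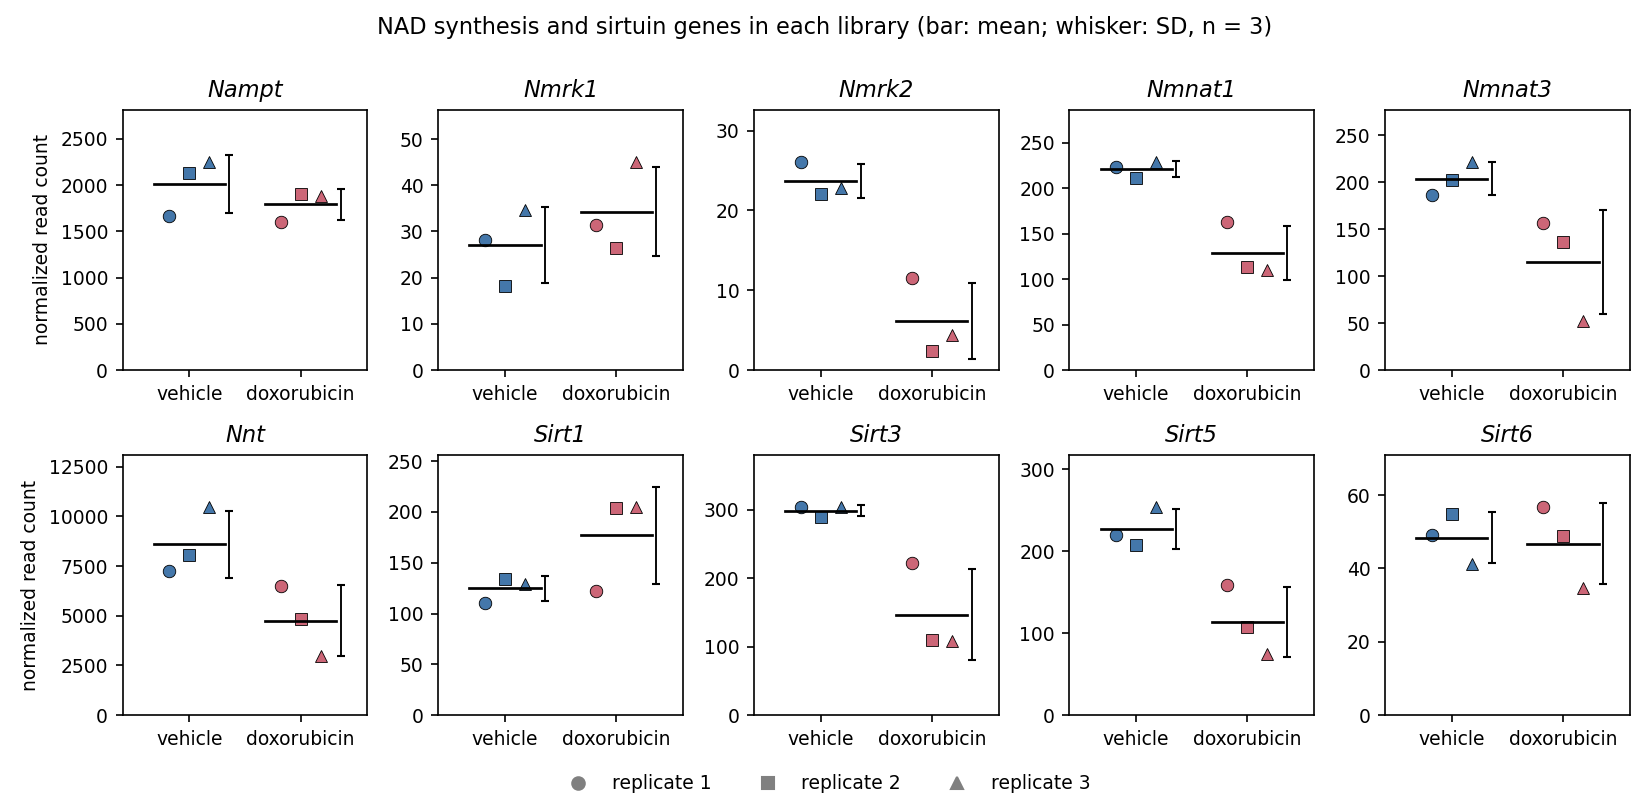
Normalized read count (linear axis from 0) of each of the 10 genes in the 3 vehicle (blue) and 3 doxorubicin (red) libraries, with marker shape for the replicate number, a bar for the mean and a whisker for the SD. In Nmrk2, Nmnat1, Nmnat3, Nnt, Sirt3 and Sirt5 every red point lies below every blue point, and doxorubicin replicate 1 is the red point nearest to the vehicle libraries.

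Among the salvage enzymes, Nampt was nearly level. In order of replicate number, its normalized counts were 1661, 2130 and 2252 with vehicle and 1599, 1899 and 1882 with doxorubicin. The groups overlapped, and the log2 difference of -0.16 (SE 0.18, limma adjusted p 0.551) was smaller than the spread between libraries. RefSeq places the noncoding gene Gdap10, at 7.06 to 21.8 normalized counts, over 2804 bases of Nampt. The sign of the Nampt difference depended on scaling, being 0.14 when every library was set to the same total, a step that shifted the median of all genes to 0.29, and 0.06 after quantile normalization. Nampt is also made by myeloid cells, whose markers were higher after doxorubicin, and their part in its level was not tested.

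Of the riboside kinases, only Nmrk2 had groups that did not overlap. Nmrk2, the form known from striated muscle, had normalized counts of 26.1, 22.1 and 22.8 with vehicle. With doxorubicin it had 11.5, 2.40 and 4.43, which is 48.8%, 10.2% and 18.7% of the vehicle mean. The means were 23.7 ± 2.13 and 6.13 ± 4.80 (SD, n = 3 in each group), and the log2 difference of -2.00 (SE 0.56, limma adjusted p 0.0859) was the largest of the 10. It was -2.52 without doxorubicin replicate 1 (adjusted p 0.00446) and -1.22 at a pseudocount of 8. The gene was thinly covered, by about 90 reads in the vehicle libraries together and about 11, 2 and 3 in the doxorubicin libraries. These read numbers are estimates. RefSeq places the noncoding gene Atcayos over all 4096 bases of Nmrk2. Atcayos had 11.4 to 14.9 normalized counts in vehicle and 11.4 to 52.1 after doxorubicin, and whether strand was used in counting is not given in the sources used here.

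Nmrk1, the broadly expressed kinase, had 28.2, 18.3 and 34.6 normalized counts in vehicle and 31.4, 26.4 and 45.1 after doxorubicin. The groups overlapped (log2 difference 0.34, SE 0.34, limma adjusted p 0.486). Within a library, the log2 ratio of Nmrk2 to Nmrk1, taken after adding 1 to each value, was -0.11, 0.26 and -0.58 in vehicle. It was -1.37, -3.01 and -3.08 in the doxorubicin libraries, so the groups did not overlap. The difference of -2.35 had an exact two-sided permutation p of 0.1, the smallest that 3 libraries against 3 allow. At these low values the added constant weighs on the ratio, and with a pseudocount of 8 the difference was -1.49. The log2 ratio of Nampt to Nmrk2 was 5.94 to 6.56 in vehicle and 6.99, 9.13 and 8.44 after doxorubicin, a difference of 1.84 (exact permutation p 0.1). With a pseudocount of 8 it was 1.06, and without doxorubicin replicate 1 it was 2.44.

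The adenylyl transferases Nmnat1 and Nmnat3 were both lower. Nmnat1 had 223, 211 and 229 normalized counts in vehicle and 163, 113 and 109.5 after doxorubicin. Its groups did not overlap, and its log2 difference of -0.80 (SE 0.19) had the smallest unadjusted p of the 10 genes (0.00315, limma adjusted p 0.0859). Equal totals gave -0.50. The vehicle libraries lay close together (SD 9.28), and doxorubicin replicate 1 lay between them and doxorubicin replicates 2 and 3. RefSeq places 2 protein-coding genes over parts of Nmnat1, Tmem274 over 5914 bases, whose values were not analysed here, and Lzic over 26. Lzic, named after its values were seen, was lower too, at 207 to 229 in vehicle and 145, 88.9 and 83.0 after doxorubicin.

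Nmnat3 had 187, 202 and 222 normalized counts in vehicle and 156, 136 and 52.7 after doxorubicin. The log2 difference was -0.96 (SE 0.38, limma adjusted p 0.121). RefSeq places the noncoding gene Gm46126 and the pseudogene Gm28530 over 2458 and 4097 bases of Nmnat3, and neither was analysed here. Doxorubicin replicate 3 was far below the other libraries, and without it the difference was -0.47. Without doxorubicin replicate 1 it was -1.25 (adjusted p 0.0224). The log2 ratio of Nmnat3 to Nmnat1 overlapped between groups, at -0.26 to -0.05 in vehicle and -0.06, 0.27 and -1.04 after doxorubicin (exact permutation p 0.9).

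Nnt, the proton-driven transhydrogenase, had the highest level per kilobase of the members. It had 7259, 8054 and 10479 normalized counts in vehicle and 6508, 4819 and 2958 after doxorubicin. The lowest vehicle and highest doxorubicin values were close, but the groups did not overlap. The log2 difference was -0.91 (SE 0.33, limma adjusted p 0.104). It was -0.60 without doxorubicin replicate 3, -0.44 after quantile normalization and -1.17 without doxorubicin replicate 1 (adjusted p 0.0125). The C57BL/6J strain, from which the reference assembly comes, carries a deletion of several exons in this gene. Counts per gene do not show which Nnt allele these mice carried.

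Both mitochondrial sirtuins were lower with a gap between the groups. Sirt3, the main mitochondrial deacetylase, had 304, 289 and 304 normalized counts in vehicle and 223, 109.8 and 108 after doxorubicin. Doxorubicin replicates 2 and 3 held 36.7% and 36.3% of the vehicle mean, and replicate 1 held 74.6%. The log2 difference was -1.10 (SE 0.28, limma adjusted p 0.0859), and without doxorubicin replicate 1 it was -1.45 (adjusted p 0.000365). RefSeq places Ric8a over 69 bases of Sirt3. Ric8a went the other way, at 169 to 204 in vehicle and 211, 305 and 331 after doxorubicin.

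Sirt5, which removes succinyl and malonyl groups in mitochondria, had 219.8, 207 and 254 normalized counts in vehicle and 159, 107 and 74.5 after doxorubicin. All 3 doxorubicin libraries lay below all 3 vehicle libraries. The log2 difference was -1.06 (SE 0.27, limma adjusted p 0.0859), and -1.33 without doxorubicin replicate 1 (adjusted p 0.0018).

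The nuclear sirtuins did not share this pattern. Sirt1, which deacetylates p53 and PGC-1alpha among others, had 110.4, 134 and 129 normalized counts in vehicle and 122, 204 and 205 after doxorubicin. Doxorubicin replicate 1 lay within the vehicle range, while replicates 2 and 3 lay at 164% of the vehicle mean. The log2 difference was 0.47 (SE 0.23, limma adjusted p 0.185), and 0.71 without doxorubicin replicate 1 (adjusted p 0.0101). Sirt6, a chromatin deacylase, had 49.2, 54.9 and 41.1 in vehicle and 56.8, 48.8 and 34.8 after doxorubicin. Its groups overlapped (log2 difference -0.07, SE 0.26, limma adjusted p 0.869), and its sign depended on scaling, being 0.23 with equal totals. The log2 ratio of Sirt3 to Sirt1 within a library was 1.46, 1.10 and 1.23 in vehicle and 0.86, -0.89 and -0.91 after doxorubicin. This difference of -1.57 (exact permutation p 0.1) belongs to a pair chosen after the values were seen. Of 4 ratios computed, 3 had groups that did not overlap. Those with Nmrk2 share 1 thinly covered gene and are not separate results, and the share over other gene pairs was not computed.

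Because cardiomyocyte transcripts themselves were lower after doxorubicin, each member was set against the mean log2 level of 20 contractile genes in the same library. That mean differed from vehicle by -0.45, -1.06 and -1.48 in doxorubicin replicates 1 to 3. Of the 20 genes, which include Ryr2 and Pln, 16 had lower groups that did not overlap, against 22.6% of all genes tested. Myh7 alone among them had a higher mean after doxorubicin. Nnt, Nmnat3, Nmnat1, Sirt3 and Sirt5 lay close to the contractile mean. Their differences relative to it were 0.09, 0.04, 0.19, -0.11 and -0.06 on the log2 scale, with SEs of 0.13, 0.27, 0.16, 0.15 and 0.07, and their groups overlapped (exact permutation p 0.3 to 0.7). Nmrk2 was lower than the contractile mean by a further -1.01 (SE 0.42), with values of -0.53, -1.79 and -0.70 in the 3 doxorubicin libraries. Relative to that mean, Nampt was higher by 0.84, Nmrk1 by 1.34, Sirt1 by 1.46 and Sirt6 by 0.93. In these 5 genes the groups did not overlap, with an exact permutation p of 0.1 for each. Because the contractile mean was itself lower after doxorubicin, a gene with unchanged counts lies above the vehicle libraries on this scale. As deposited, Nampt and Sirt6 differed by -0.16 and -0.07, and Nmrk1 and Sirt1 by 0.34 and 0.47, with overlapping groups. Their higher relative values are thus not a rise in counts that separated the groups. The share of all genes with separate groups on this scale was not computed. The 8 cardiomyocyte markers are all among the 20 contractile genes, so this second reference is a part of the first. Against these 8 markers, whose own difference was -1.43, all values were higher by about 0.43. Nmrk2 was then at -0.58 and Nampt at 1.27, both with overlapping groups (exact permutation p 0.3). Nampt also overlapped against the median of the contractile genes (0.88, exact permutation p 0.3). Against the 8 markers Sirt3 was at 0.32 and Sirt5 at 0.37, so the sign for Sirt3 and Sirt5 depended on the choice of reference genes.

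**Figure D2:**
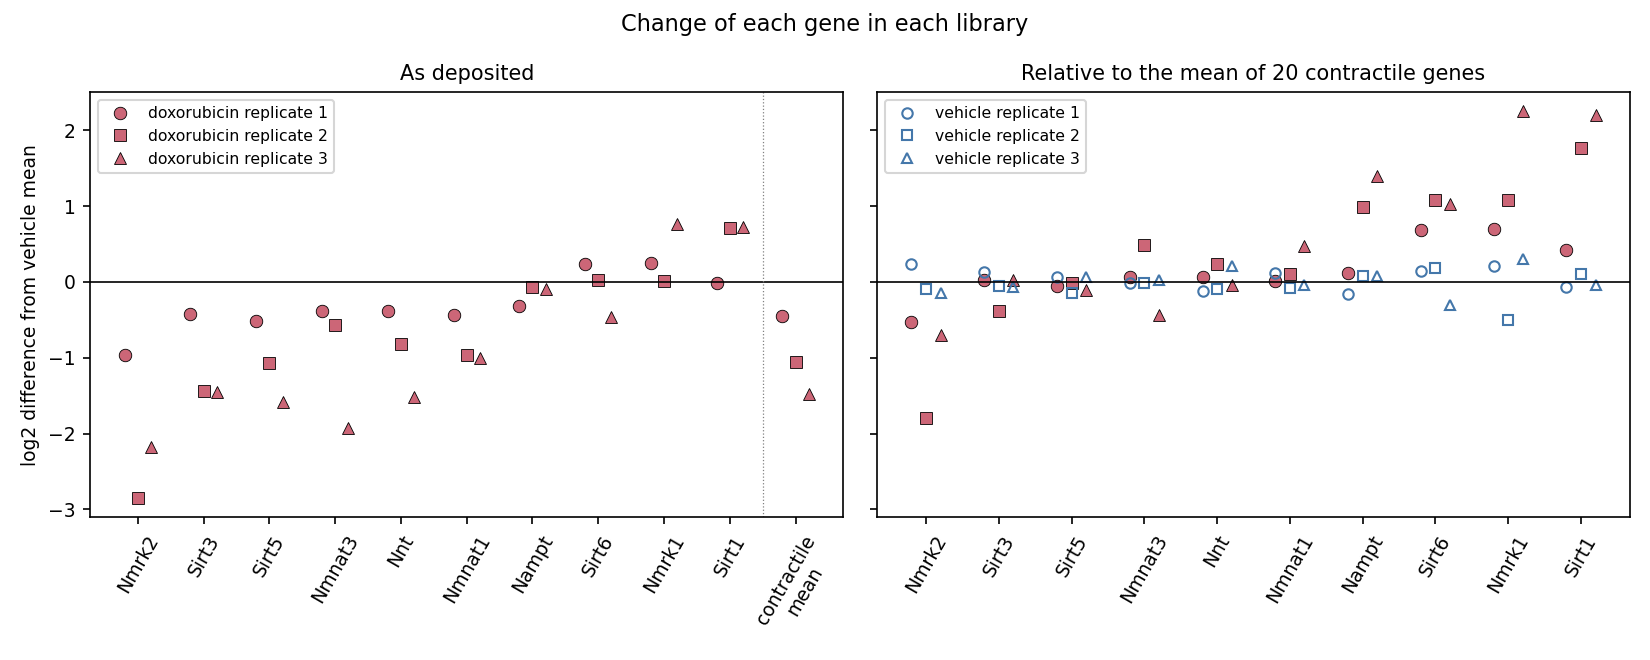
Log2 difference of each gene from the vehicle mean, by library, as deposited (left, with the mean of 20 contractile genes at the far right) and relative to that contractile mean (right, with vehicle libraries as open blue symbols). On the right, Sirt3, Sirt5, Nmnat3, Nnt and Nmnat1 scatter around 0, Nmrk2 lies below and Nampt, Sirt6, Nmrk1 and Sirt1 lie above all vehicle libraries. The contractile mean is itself lower after doxorubicin, so a gene with unchanged counts lies above 0 on the right.

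The libraries also fell into 2 classes by Xist and Y-linked transcripts, with 1 doxorubicin library in the Y-linked class and 1 vehicle library in the Xist class. With the class as a term, limma called 0 genes in either direction, and the log2 differences of the 6 lower members were -2.20 for Nmrk2, -1.19 for Sirt3, -1.10 for Sirt5, -0.96 for Nnt, -0.89 for Nmnat3 and -0.86 for Nmnat1 (adjusted p 0.105 to 0.19). Within the Y-linked and Xist classes, where 1 group has a single library and the values carry no test, the log2 differences were -2.88 and -1.53 for Nmrk2, -1.43 and -0.96 for Sirt3, -0.99 and -1.21 for Sirt5 and -0.94 and -0.77 for Nmnat1. For Nnt they were -0.67 and -1.26, for Nmnat3 -0.51 and -1.28 and for Sirt1 0.74 and 0.29. The 6 lower genes were lower in both classes, which follows from their groups not overlapping and is no separate result.

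Per kilobase of transcript, the vehicle level was highest for Nnt, at 2630 ± 513 normalized counts per kilobase (SD, n = 3), followed by Nampt at 445 ± 68.9 and Sirt3 at 272 ± 7.69. Next came Nmnat1 (169), Nmnat3 (148) and Sirt5 (147), whose ranges touched each other, so they were not separated. Sirt1 (32.6) and Sirt6 (29.0) overlapped as well, as did Nmrk1 (15.3) and Nmrk2 (12.8). After doxorubicin the level per kilobase of Nnt was 1457 ± 543, of Sirt3 134 ± 59.8, of Sirt1 46.3 ± 12.4 and of Nmrk2 3.30 ± 2.59. Lengths are medians over the protein-coding transcripts of GENCODE M21. With the longest transcript in their place, Nmnat1 (83.1) moved behind Nmnat3 (94.0) and Sirt5 (93.6), and Sirt3 was at 186.

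**Figure D3:**
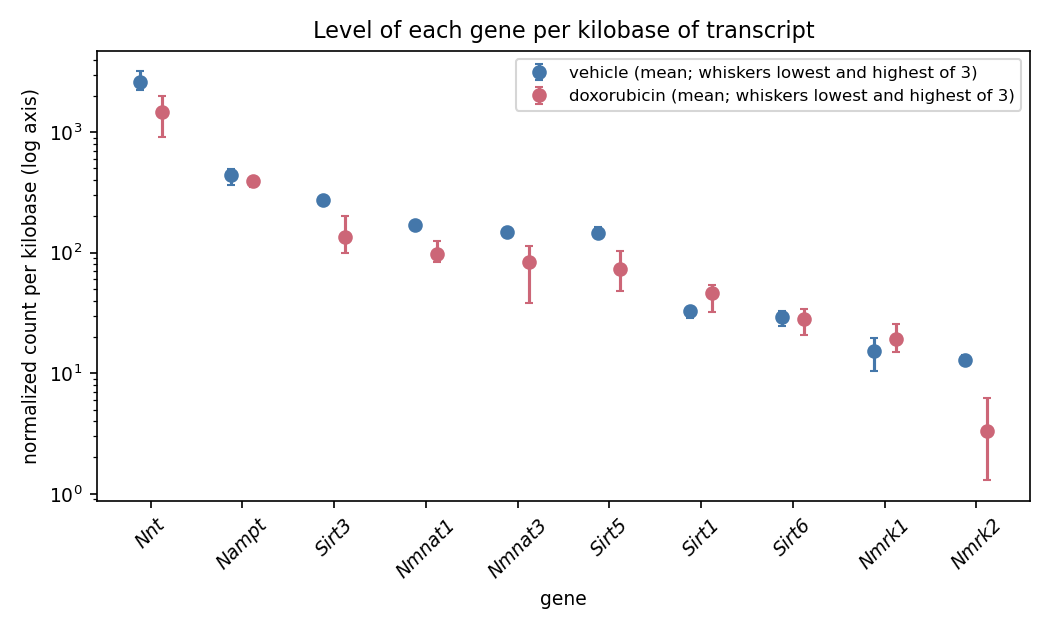
Normalized count per kilobase (log axis) of each gene, ordered by the vehicle mean, with whiskers from the lowest to the highest of 3 libraries. Nnt leads at 2630 in vehicle, and Nmrk2 is last in both groups.

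A wider list of 37 other genes of NAD metabolism was taken from general knowledge of the pathway. Of these, 27 reached the mean of 10 needed for testing, and at an adjusted p under 0.05 limma called 0 of them (3 higher and 6 lower at an unadjusted p under 0.05). Groups did not overlap in 6 higher and 9 lower genes, which is 22.2% and 33.3% of those tested, against 19.2% and 22.6% of all genes. The median log2 difference was -0.23, and 0.07 with equal totals. Without doxorubicin replicate 1, 4 of the 27 were called higher and 8 lower, against 19.3% and 21.8% of all genes.

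Among the remaining sirtuins, mitochondrial Sirt4 had 79.4, 58.1 and 66.2 normalized counts in vehicle and 58.0, 36.3 and 37.5 after doxorubicin. Its groups did not overlap as deposited (log2 difference -0.64, SE 0.25, limma adjusted p 0.121). However, its lowest vehicle and highest doxorubicin values were nearly equal, and equal totals gave -0.34. Cytoplasmic Sirt2 (-0.30, adjusted p 0.192) and nucleolar Sirt7 (0.54, adjusted p 0.201) had overlapping groups. Nmnat2, the Golgi and axonal enzyme of that step, was too low to be tested, at 0.875 to 2.88 in vehicle and 7.36, 15.6 and 0 after doxorubicin. Pnp, the purine nucleoside phosphorylase that can split nicotinamide riboside, was higher in every doxorubicin library. It had 192, 159 and 120.2 in vehicle and 269, 564 and 669.7 after doxorubicin (log2 difference 1.59, SE 0.35, limma adjusted p 0.0859).

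The routes from nicotinic acid and tryptophan were sparse in these libraries, with 3 of 11 genes tested. Naprt, which starts salvage from nicotinic acid, had 106, 111 and 125 normalized counts in vehicle and 75.8, 64.8 and 59.0 after doxorubicin (log2 difference -0.77, SE 0.18, limma adjusted p 0.0859). Afmid, the kynurenine formamidase, had 87.4, 78.7 and 99.3 against 62.7, 22.3 and 24.8 (-1.40, SE 0.39, adjusted p 0.0859). All doxorubicin values of both genes lay below all vehicle values. Nadsyn1, the final step of that route, differed by 0.16 with overlapping groups. Nadk, the cytosolic kinase that makes NADP, was higher in every doxorubicin library, at 381, 377 and 319 against 473, 667 and 763 (0.80, SE 0.20, adjusted p 0.0859), whereas the mitochondrial kinase Nadk2 overlapped (-0.34, adjusted p 0.328).

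Enzymes that break down NAD or clear nicotinamide differed among themselves. Bst1, a glycohydrolase of myeloid and stromal cells, had 27.0, 16.3 and 13.3 normalized counts in vehicle and 47.05, 104.8 and 124 after doxorubicin. This log2 difference of 2.17 (SE 0.43, limma adjusted p 0.0859) was the largest of the wider list, and the part of the higher myeloid markers in it was not tested. Cd38, the related glycohydrolase, had 237, 224 and 175 against 270.1, 200.5 and 449 (0.46, adjusted p 0.282), with overlapping groups. Parp1, the DNA-break sensor that consumes NAD, had 557, 541 and 619 against 559, 321 and 287. Its groups overlapped because doxorubicin replicate 1 lay within the vehicle range, and the log2 difference was -0.62 (adjusted p 0.126), or -0.91 without that library (adjusted p 0.00216). Parp3 and Tnks differed by -0.23 and -0.18, and both signs turned with equal totals (0.07 and 0.12). For the clearance enzymes, Nnmt methylates nicotinamide and differed by 0.95 from a low level (11.1 ± 3.93 against 21.9 ± 5.01). Aox1, which oxidises the methylated product, was at 186, 246 and 207 against 183, 886 and 480.4 (1.01, SE 0.50, adjusted p 0.185), with doxorubicin replicate 1 below all vehicle libraries.

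Of the transport genes, Slc12a8 (0.96), Slc25a47 (-0.59) and Nt5e (0.40) had the largest differences, with limma adjusted p of 0.189, 0.346 and 0.156. Slc12a8 was thinly covered, by an estimated 12, 6 and 9 reads in vehicle and 10, 20 and 8 after doxorubicin. Slc25a47 had an estimated 5 to 33 reads per library. All 4 genes that repair or hydrolyse damaged or spent NAD(P)H were lower with groups that did not overlap, against 22.6% of all genes tested. Naxe, Nudt12 and Naxd differed by -0.60, -0.46 and -0.33, and with equal totals by -0.30, -0.16 and -0.03 (adjusted p of 0.0859, 0.0951 and 0.156 as deposited). The sign of the fourth gene of that group, Nudt13, turned with equal totals, from -0.27 to 0.03.

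**Figure D4:**
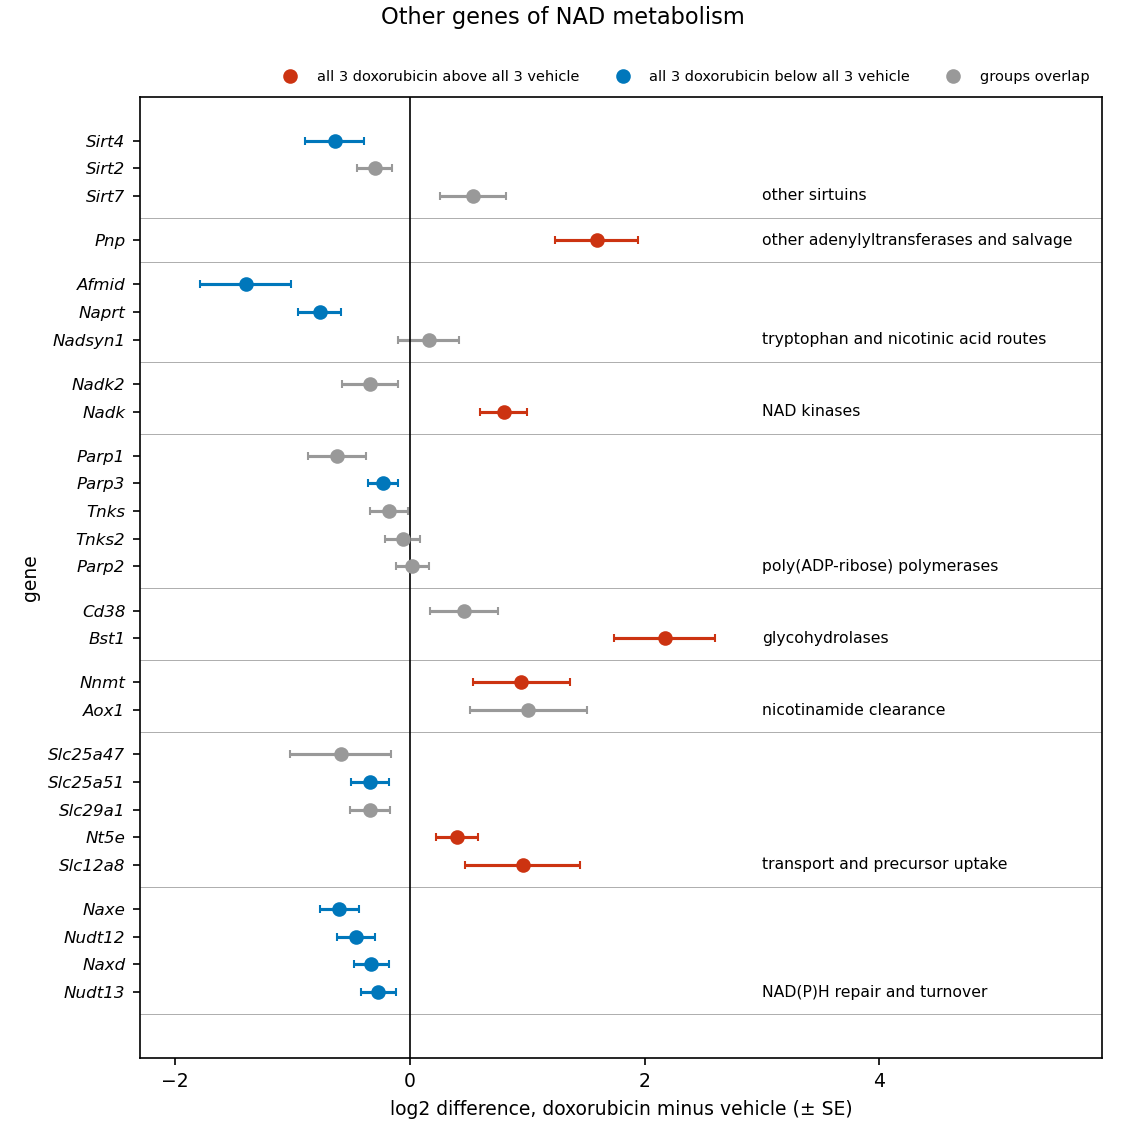
Log2 difference (doxorubicin minus vehicle) with its SE for the 27 tested genes of the wider NAD list, ordered by role. Red points mark the 6 genes higher in every doxorubicin library, led by Bst1 at 2.17, blue points the 9 genes lower in every one, led by Afmid at -1.40, and grey points the genes whose groups overlap.

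The genes whose profile over the 6 libraries was most like Nampt among 8224 compared were Ranbp10, Eif3a and Trip4, with Pearson r of 0.986, 0.975 and 0.958. Those most like Nmrk2, among 8225, were Cpped1, Riox2 and Ppif, at 0.997, 0.996 and 0.996. Their log2 differences were -0.70, -0.69 and -1.44, with lower groups that did not overlap. That separation follows from choosing genes that match Nmrk2, and 22.6% of all genes tested had it. The Nmrk2 profile itself rests on few reads. Ppif encodes cyclophilin D of the mitochondrial permeability pore and had 1820, 1606 and 1871 normalized counts in vehicle against 1131, 435 and 554 after doxorubicin. These correlations share libraries and depth and describe the 6 points only.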

How the data were processed

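Per the labels, reads were aligned with STAR in BaseSpace RNAseq Alignment 2.0.2 to mm10 with RefSeq genes, followed by BaseSpace RNA-seq Differential Expression 1.0.1; the submitters' processing notes also list STAR 2.6.1a and Salmon. How counts were normalized, whether strand was used and which filters applied is not given in those sources. The authors deposited normalized counts, a signal per gene and library with no negative value, and 0 columns were left unused. Values entered the fit unscaled. Genes averaging 10 or more over the 6 libraries were tested on log2(value + 1) with limma 3.58.1 in R 4.3.3 (mean-dependent prior, two-sided, Benjamini-Hochberg over all genes, threshold 0.05), after the script was tested on simulated data. The pseudocount of 1 understates differences of low genes.

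Groups came from sample titles. Depth was estimated by taking the most common low value as 1 read; 80.0% to 92.5% of low values lay within 0.1 step of a whole multiple, too few for count tests, so reads per gene are given as estimates only. Ratios and contractile-relative values were compared by exact permutation (SciPy 1.17.1). Members and lists were chosen with earlier results of these data known. Named were the 10 members; of the wider list Sirt2, Sirt4, Sirt7, Nmnat2, Parp1, Cd38 and the 3 largest differences per role; the 3 genes most correlated with Nampt and with Nmrk2 (mean of at least 100); and the highest markers. Other named genes were chosen after their values were seen. Promoter sequences and gene coordinates are from RefSeq GRCm38.p6; all 10 members matched. The labels name 3 mice per group, taken as the replicates. Figures used matplotlib 3.10.9 in Python 3.11.15.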

Additional observations from a re-analysis of the deposited data

How the results depend on the processing

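Of 17 alternative fits, 2 gave member calls. Library weights called 1954 genes higher and 2318 lower, with 1 and 6 of the 10 members and 4 and 6 of the wider list. Leaving out each library in turn gave 0 to 2409 genes higher and 0 to 2718 lower, with 0 to 1 and 0 to 6 members and 0 to 4 and 0 to 8 of the wider list; the upper ends all belong to the fit without doxorubicin replicate 1. The fit without doxorubicin replicate 2 called 1 gene lower, no member. The 6 lower members and Nmrk1 and Sirt1 kept their sign in every fit that included them, Nmrk1, Nmrk2 and Sirt6 being left out at a minimum mean of 50. Nampt was 0.14 with equal totals and 0.06 after quantile normalization. Sirt6 was 0.23 with equal totals, 0.01 with the Xist or Y-linked class as a term and -0.22 to 0.13 when 1 library was left out. In the wider list, equal totals turned Parp3 (0.07), Tnks (0.12), Tnks2 (0.25) and Nudt13 (0.03), quantile normalization turned Nadsyn1 (-0.06), Parp2 (-0.03) and Tnks2 (0.06), and Parp2 was -0.01 without doxorubicin replicate 1. Equal totals add about 0.29 to every gene by construction; the other causes were not tested.

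Relative to the contractile mean, leaving out 1 library gave -0.19 to 0.28 for Nmnat3 and -0.18 to 0.03 for Sirt3. The 8 cardiomyocyte markers as reference gave 0.32 for Sirt3 and 0.37 for Sirt5, and the median of the contractile genes, added after seeing the data, turned no member. The log2 ratio of Nmnat3 to Nmnat1 ran from -0.43 to 0.23 without 1 library. With the replicate number as a block, limma called 0 genes higher and 0 lower, and Nmrk2 and Sirt3 had adjusted p of 0.115 and 0.115. Same-numbered libraries did not deviate together (correlations -0.128, 0.0332 and -0.0928), and unlike-numbered ones had correlations of -0.183 to 0.223. No pairing by number was seen, but deviations centred within groups of 3 are a weak check of it. Depth limits Nmrk2, at an estimated 2 and 3 reads in doxorubicin replicates 2 and 3.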
